A study of Oryza sativa Japonica Group with 12 samples.

Results

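The cyclins, cyclin-dependent kinases (CDKs), CDK inhibitors, PCNA and histones of rice were followed in panicles of wild type (WT) and of the fst mutant. Members were chosen by name, with earlier results of these data known. A symbol or synonym in the gene annotation had to begin with the name of a cyclin class (A, B, D, T or U), CDK, KRP, E2F, H2A, H2B, H3 or H4, or be PCNA. This named 53 genes, of which 39 had a probe set, out of 17905 genes with a probe set on the array. The 39 were 3 A-type, 4 B-type, 9 D-type and 2 T-type cyclins, 11 CDKs, 4 KRP inhibitors, PCNA and 5 H2B histones. The other 14 named genes had no listed probe set, and no gene was found under E2F, cyclin U, H2A, H3 or H4, so the histones described are H2B only. A gene with several probe sets (10 genes) was represented by the brightest of them.

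The Affymetrix Rice GeneChip was hybridised with panicle RNA of greenhouse-grown japonica plants, and the spontaneous fst mutation was found in the cultivar Junambyeo. The 4 groups of 3 arrays were WT before flowering (WBF), fst before flowering (MBF), WT at 5 days after pollination (5 DAP, W5D) and fst at 5 DAP (M5D). The labels use the earlier name cynosure (cyn) for fst. In the mutant samples the free-text description speaks of wild lines, unlike the titles, sources and genotypes, from which the groups were taken. Every sample pooled 20 panicles from 10 plants, and the replicates are called independent biological ones. FST encodes a B-sister MADS-box protein and fst carries a frame-shift, so the transcript can persist. Its signal was 1351 ± 149 (SD, n = 3) in W5D and 1259 ± 175 in M5D, a change for FST of -0.11 on the log2 scale (adjusted p = 0.717). Before flowering FST was higher in the mutant, at 115 ± 8.64 in WBF and 227 ± 13.9 in MBF, a change of 0.98 (SE 0.12, adjusted p = 0.000928). The FST signal therefore does not check the genotype labels. RNA of a whole panicle mixes many tissues, and fewer dividing cells cannot be told apart from less RNA per cell.

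Cyclins bind CDKs and set their timing. D-type cyclins act with CDKA at entry into the cycle, where they inactivate the retinoblastoma-related protein, whereas A- and B-type cyclins act from DNA replication to mitosis with CDKA and the plant-specific CDKB. KRP proteins inhibit cyclin-CDK complexes, PCNA clamps the polymerase to replicating DNA, and H2B is a core histone needed to package new DNA. In the grain, nuclei of the endosperm divide rapidly after fertilization and the embryo grows by cell division.

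Signals are the deposited RMA intensities on a linear scale. Changes are log2 differences with the standard error (SE) of limma, and a call means an adjusted p under 0.05 over all 57194 probe sets. Arrays of a group correlated at r = 0.990 to 0.996. The members varied more among the M5D arrays, with a median coefficient of variation of 16.9% against 5.61% to 7.95% in the other groups. Within M5D, replicate 1 was the highest array for all 4 B-type cyclins, and replicate 3 was the highest for 8 of 11 CDKs and the lowest for all 5 H2B genes.

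At 5 DAP most A- and B-type cyclins, the B-type CDK measured (CDKB2-1), PCNA and H2B were lower in fst panicles than in WT. Of the other CDKs, the KRPs, and the D- and T-type cyclins none was lower and 3 were higher. Of 39 members, 12 were lower, 3 were higher and 24 were not called. Over all probe sets 5.41% were lower and 6.22% higher, 11.6% in all. Many of these are dim or without a named gene. By the brightest probe set of each gene, as for the members, 2300 of 17905 genes were lower and 2851 higher, with p adjusted over these genes. The median change of the members was 0.067, against 0.013 over all probe sets, since the changes ran in both directions from -1.59 to 0.90. Every M5D array lay below every W5D array in 12 of the 39 members, called or not, against 12.1% of all probe sets. In 9 members every M5D array lay above every W5D array, against 14.7% of all probe sets.

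**Figure D1:**
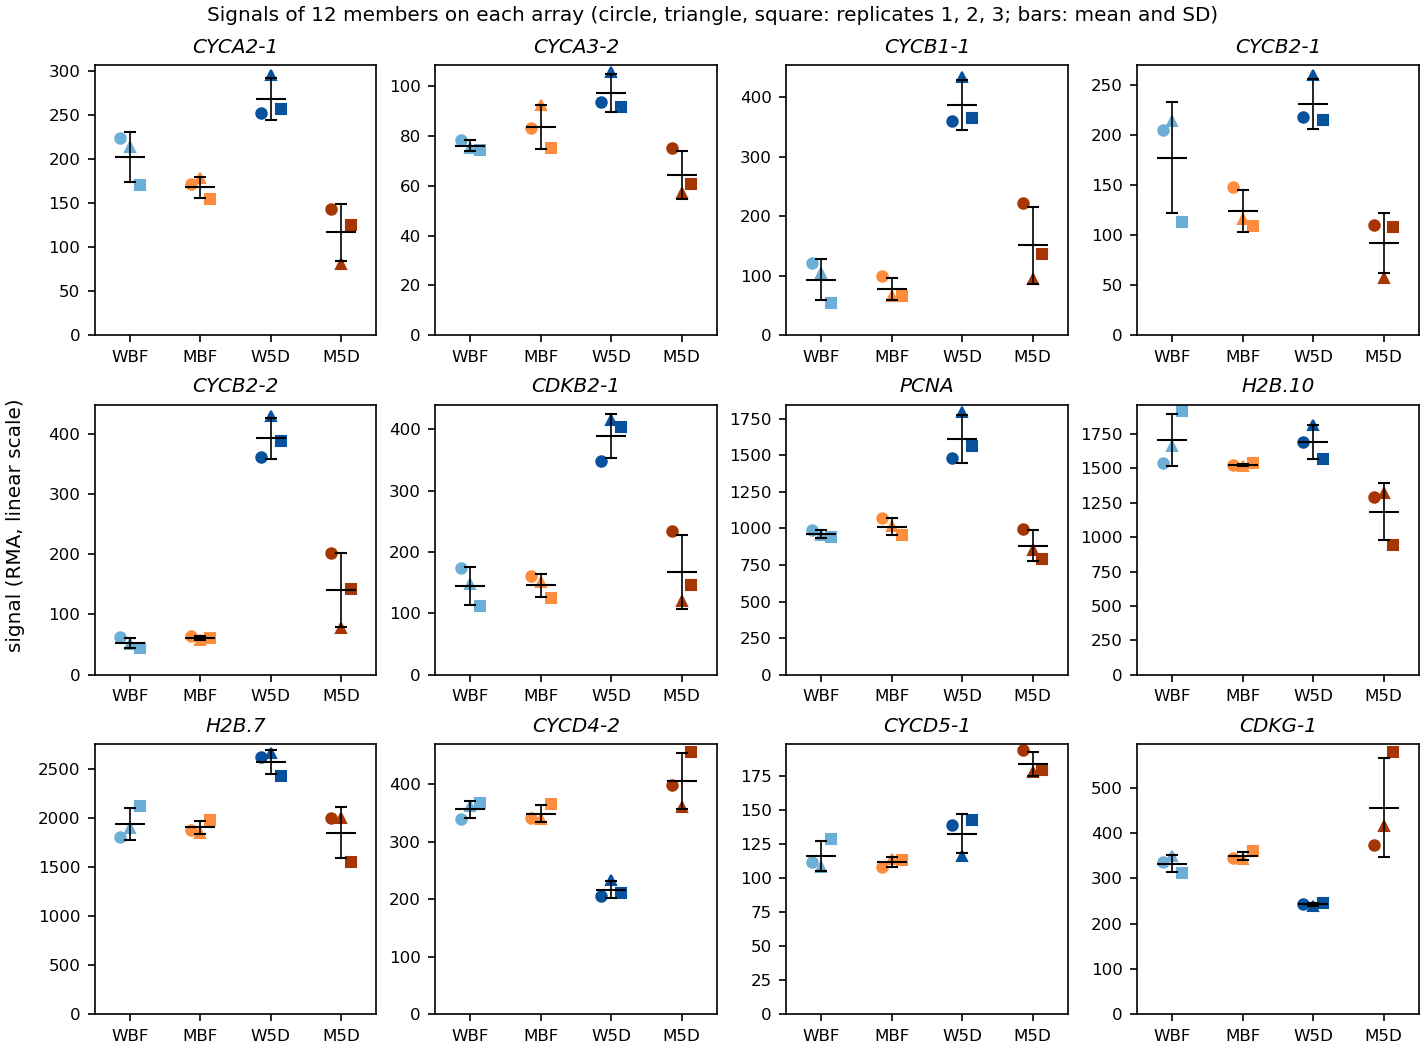
Signal (RMA, linear axes from 0) of 12 members on each of the 12 arrays, by group, with circles, triangles and squares for replicates 1, 2 and 3 and bars for the mean and SD. For the A- and B-type cyclins, CDKB2-1, PCNA and both H2B genes shown, all M5D points lie below all W5D points, and for CYCD4-2, CYCD5-1 and CDKG-1 they lie above.

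B-type cyclins, which drive entry into mitosis, showed the greatest differences among the members. CYCB2-2 (LOC4342121) had signals of 362, 429 and 387 in W5D and of 201, 78.0 and 142 in M5D. The groups did not overlap, and M5D replicate 2 was the lowest. The log2 change was -1.59 (SE 0.25, adjusted p = 0.00121). A second probe set of the gene gave -1.45 (SE 0.33, adjusted p = 0.0113). CYCB1-1 (LOC4327547) measured 360.5, 434 and 364 in W5D against 222, 94.2 and 136 in M5D, a change of -1.44 (SE 0.31, adjusted p = 0.00895). CYCB2-1 (LOC4336670) measured 219, 260.0 and 216 against 110.0, 57.2 and 108, a change of -1.39 (SE 0.27, adjusted p = 0.00423). Both genes were again lowest in M5D replicate 2. The remaining B-type cyclin, CYCB1-3 (LOC4326914), read 38.2, 50.4 and 42.5 in W5D and 58.9, 16.7 and 22.8 in M5D. Its M5D replicate 1 exceeded every W5D array, the groups overlapped, and the change of -0.62 did not pass (adjusted p = 0.347).

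Leaving out a single M5D array kept each of the 3 lower B-type cyclins past the test. Without replicate 1 the change of CYCB2-2 was -1.90, and without replicate 2 it was -1.21. For CYCB1-1 the corresponding values were -1.77 and -1.15.

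CDKB2-1 (LOC4346016), a plant-specific CDK of the G2 to M phase, moved like these cyclins. Its signals were 348, 415 and 403 in W5D and 235, 120.3 and 147 in M5D. The change was -1.27 (SE 0.22, adjusted p = 0.00211), with replicate 1 again the highest M5D array. CDKB1-1, also a B-type CDK named by the rule, had no probe set.

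Of the 3 A-type cyclins, which act in S and G2 phase, 2 were lower. CYCA2-1 (LOC4352280) gave 252, 296 and 257 in W5D and 144, 81.2 and 125 in M5D, a change of -1.24 (SE 0.18, adjusted p = 0.000676). CYCA3-2 (LOC4352642) gave 93.8, 106 and 91.8 against 75.3, 56.9 and 60.8, a smaller change of -0.60 (SE 0.12, adjusted p = 0.00564). Neither gene had overlapping groups at 5 DAP. CYCA1-4 (LOC4338177) had 139, 159 and 166 in W5D and 171, 158 and 285 in M5D, and its 0.36 did not pass (adjusted p = 0.291).

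PCNA (LOC4331062) had W5D signals of 1481, 1795 and 1562 and M5D signals of 998, 852 and 792. All M5D arrays lay below all W5D arrays, and the change was -0.87 (SE 0.11, adjusted p = 0.000229), a 1.83-fold lower signal.

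All 5 H2B genes were lower in fst by a smaller amount, between -0.38 and -0.53. H2B.10 (LOC4324495) had 1692, 1815 and 1570.0 in W5D and 1291, 1318 and 946 in M5D, a change of -0.53 (SE 0.13, adjusted p = 0.0201). H2B.7 (LOC4324500) had 2626, 2661 and 2431 against 2002, 1998 and 1549, a change of -0.48 (SE 0.12, adjusted p = 0.0148). M5D replicate 3 stood below the other arrays for both. H2B.5 (LOC4324504) had 5052, 5252 and 4851 against 4001, 3944 and 3002, a change of -0.48 (SE 0.11, adjusted p = 0.0147). H2B.11 and H2B.6 changed by -0.39 and -0.38.

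The H2B genes belong to one family, and their probe sets may read each other's transcripts, which was not checked. They are therefore not taken as 5 independent observations. In the gene order of the RefSeq assembly ASM3414082v1, H2B.10, H2B.7, H2B.6 and H2B.5 follow each other on chromosome 1 with 4, 2 and 1 protein-coding genes between neighbours. The calls were near the threshold. Without W5D replicate 2 all 5 H2B calls and that of CYCD5-1 were lost, which left 9 members called, 7 lower and 2 higher. Fitted on the W5D and M5D arrays alone, without the spread of the other groups, all 5 H2B calls were also lost. Adjusted p of limma then ran from 0.0612 (H2B.7) to 0.1115 (H2B.11). Without M5D replicate 3 the change of H2B.10 was -0.37 (adjusted p = 0.0564).

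D-type cyclins, which link growth signals to entry into the cycle, had 2 of 9 members higher in fst at 5 DAP and none called lower. Over all genes by their brightest probe sets, 2851 of 17905 were higher and 2300 lower. CYCD4-2 (LOC4345844) gave 206, 234 and 211 in W5D and 399.5, 360.2 and 457 in M5D. All M5D arrays were higher, by 0.90 (SE 0.11, adjusted p = 0.000124). CYCD5-1 (LOC4333455) gave 139, 116 and 143 against 194, 178 and 179.8, a change of 0.48 (SE 0.11, adjusted p = 0.0107). The other 7 ranged from -0.20 for CYCD2-2 to 0.38 for CYCD6-1, and none passed the test.

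Outside the B class, 1 of 10 CDKs was called, against 11.6% of all probe sets. CDKG-1 (LOC4329899), of the plant G class, measured 244, 239 and 246 in W5D and 373, 417 and 579.6 in M5D, above WT by 0.89 (SE 0.14, adjusted p = 0.000942). The W5D arrays were nearly equal and M5D replicate 3 stood highest. Without that array the change was 0.70 (adjusted p = 0.000825). A second probe set of CDKG-1, with a mean signal of 9.60, showed 0.12 (adjusted p = 0.595). CDKA-1 (LOC4331415), the CDK that acts through the whole cycle, averaged 1032 ± 18.6 in W5D and 1170 ± 52.0 (SD, n = 3) in M5D, and its 0.18 was not called (adjusted p = 0.254). CDKD-1, a CDK-activating kinase, and CDKE-1, the Mediator kinase, changed by 0.24 and 0.26 without a call.

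The 4 KRP inhibitors also passed no test between genotypes at 5 DAP. KRP1 averaged 648 ± 14.5 in W5D and 753 ± 36.7 in M5D, and KRP4 averaged 677 ± 75.7 and 662 ± 20.4. KRP5 averaged 218 ± 12.7 and 228 ± 17.5, and KRP6 averaged 567 ± 46.3 and 687 ± 84.5. Their changes lay between -0.0265 and 0.27, and 0 of the 4 reached an unadjusted p under 0.05 in limma. T-type cyclins, partners of CDKC in transcription elongation and not in the division cycle, changed by 0.13 (CycT1;2) and 0.0695 (CycT1;4), neither of which was called.

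**Figure D2:**
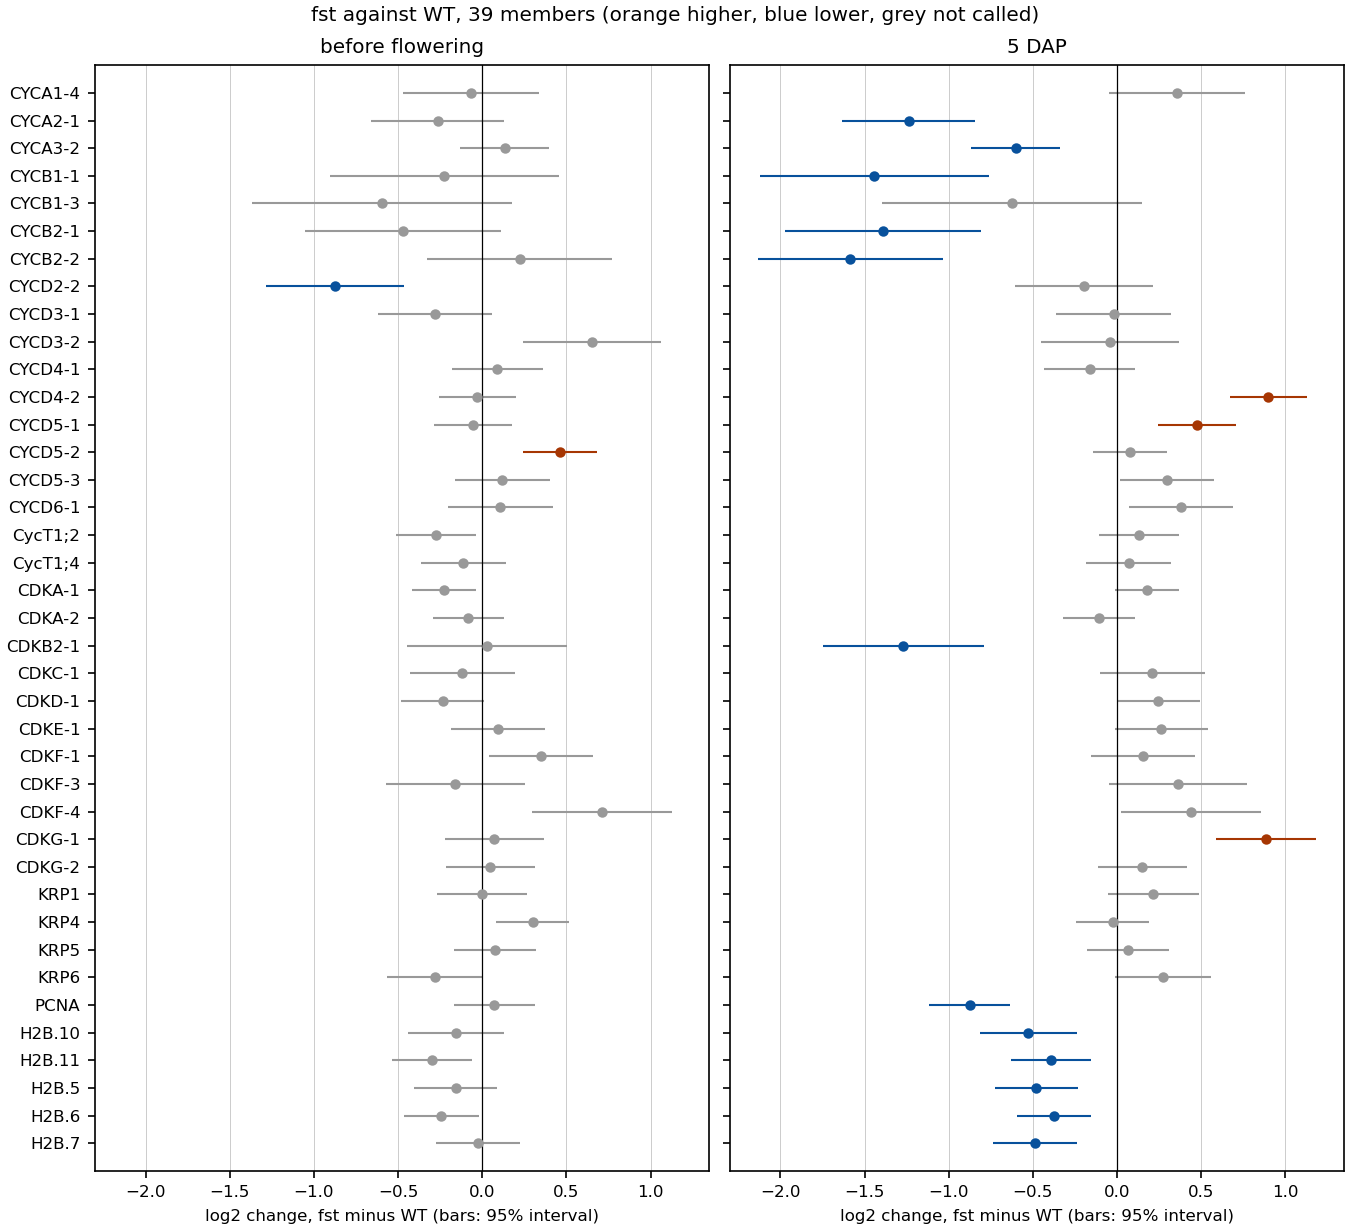
Log2 change of fst against WT for all 39 members before flowering (left) and at 5 DAP (right), with 95% intervals of limma and n = 3 arrays per group. At 5 DAP 12 members are lower (blue) and 3 higher (orange), against 1 and 1 before flowering.

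Markers of other tissues moved with these differences. The summed signal of 4 endosperm and seed storage genes ranged from 5730 to 13440 in W5D and from 1582 to 1849 in M5D, and 3 of the 4 were lower in fst. GLUA1, a glutelin gene, averaged 1973 ± 1289 in W5D and 7.55 ± 0.26 in M5D (SD, n = 3). GLUA2, the other glutelin gene of the list with a probe set, was not called by the brighter of its 2, at 166.6 ± 20.3 and 177.6 ± 50.5. This probe set was higher before flowering, at 571 ± 57.8 in WBF and 912 ± 56.0 in MBF, so it does not read the filling grain alone. Before flowering the 4 genes already summed to 2704 to 3676 in WBF and 2589 to 3143 in MBF. The sum of 10 floral organ MADS genes was 35140 to 35400 in W5D and 45320 to 47990 in M5D, and 6 of the 10 were higher in fst. For 2 embryo and late seed genes the sum was 1315 to 1380 in W5D and 387 to 536 in M5D, with 1 of 2 lower. Before flowering this sum was higher in both genotypes, at 2266 to 3180 in WBF and 1016 to 1633 in MBF. There too 1 of 2 was lower in fst, so the list does not read embryo tissue alone. The sum of 7 anther and pollen genes overlapped at 5 DAP, at 890 to 1011 in W5D and 795 to 995 in M5D, with none of 7 called. For 2 photosynthetic genes the sums were 15950 to 16860 and 16670 to 18570, with 1 of 2 higher. Beside these counts, 5.41% of all probe sets were lower and 6.22% higher at 5 DAP. By the brightest probe set of each gene, 2300 of 17905 genes were lower and 2851 higher. The part of tissue makeup in the cell cycle differences was not tested.

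Genes of DNA replication and chromatin outside these families were counted by a list of names. Of its 45 genes, 21 were lower in fst at 5 DAP, 1 was higher and 23 were not called. Over all probe sets 5.41% were lower and 6.22% higher. By the brightest probe set of each gene, 2300 of 17905 genes were lower and 2851 higher. The median change of the 45 genes was -0.26 against 0.013 over all probe sets. Among the 13 origin and helicase genes 8 were lower, among the 16 fork genes 7, among the 6 chromatin genes 4 and among the 10 regulators 2.

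All 6 subunits of the MCM2 to MCM7 helicase, which opens DNA for replication, were lower. MCM8 and MCM9, which are not part of that helicase, were not called, at -0.10 and 0.40. MCM2 had 349.8, 606 and 387 in W5D and 168, 87.4 and 142 in M5D, the largest change of the 45 genes at -1.77 (SE 0.23, adjusted p = 0.000284). MCM3 had 318, 496 and 362 against 159, 88.0 and 142, a change of -1.62 (SE 0.21, adjusted p = 0.000228). W5D replicate 2 was the highest array for both genes and M5D replicate 2 the lowest. OsMCM6 and CYCA1-4 lie on chromosome 5 with 3 protein-coding genes between them, and changed by -1.45 and by 0.36 without a call.

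The 16 fork genes code for subunits of RPA, RFC and DNA polymerase delta and for FEN1. The largest changes among them were those of subunits of RPA, which coats single-stranded DNA. OsRPA70b had 213, 297 and 234 in W5D and 101, 67.4 and 89.3 in M5D, a change of -1.54 (SE 0.18, adjusted p = 0.00014). OsRPA32 had 570.0, 792 and 611 against 369.9, 274 and 328, a change of -1.02 (SE 0.16, adjusted p = 0.00127). Neither gene had overlapping groups.

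Among the chromatin genes, MET1 (LOC4342575), a maintenance DNA methyltransferase, had 579.7, 953 and 898 in W5D and 301, 177 and 265 in M5D. Its change was -1.71 (SE 0.22, adjusted p = 0.000263). CMT3, a methyltransferase of non-CG sites, had 102, 129 and 120.4 against 58.7, 35.0 and 56.7, a change of -1.25 (SE 0.23, adjusted p = 0.00293).

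OsRBR1, 1 of 2 retinoblastoma-related genes of the list, was also lower at 5 DAP. Its signals were 77.0, 99.2 and 72.1 in W5D and 45.1, 26.5 and 48.0 in M5D, a change of -1.09 (SE 0.21, adjusted p = 0.00425). OsRBR2 averaged 278 ± 24.1 in W5D and 344 ± 61.9 in M5D (SD, n = 3), and its 0.30 was not called (adjusted p = 0.186). CKS1, a CDK-binding subunit, had 1805, 1735 and 1569 against 1066, 939.6 and 749, a change of -0.90 (SE 0.13, adjusted p = 0.00055). The 1 related gene that was higher was CYCP3-1, a P-type cyclin, at 0.63 (SE 0.15, adjusted p = 0.0146).

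**Figure D3:**
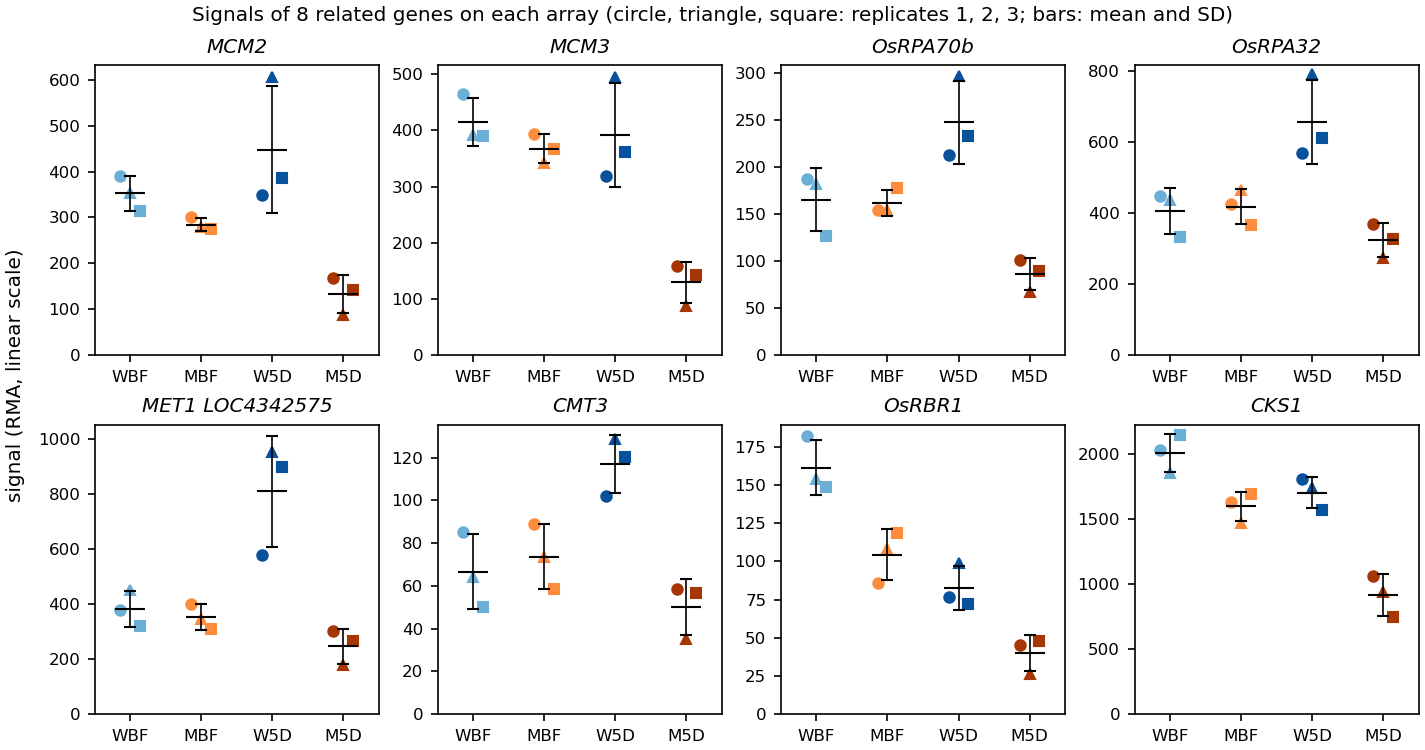
Signal (RMA, linear axes from 0) of 8 replication, chromatin and regulator genes on each array, by group, with symbols for replicates and bars for mean and SD. In all 8 panels the 3 M5D points lie below the 3 W5D points.

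Before flowering the genotypes differed in few members. Of 39, 1 was lower, 1 was higher and 37 were not called, while 2.81% of all probe sets were lower and 1.82% higher, 4.63% in all. By the brightest probe set of each gene, 1171 of 17905 genes were lower and 607 higher. The median change of the members was -0.053 against 0.0385 over all probe sets. Every MBF array lay below every WBF array for 9 members and above for 5, against 13.5% and 15.0% of all probe sets. No A- or B-type cyclin, CDK, KRP or H2B gene was called, and none of the 45 related genes was. At an unadjusted p under 0.05 of limma, 5 members were higher and 5 lower, and 1 related gene was higher and 6 were lower. The H2B genes made up 4 of the 9 members with every MBF array lower. Their changes ran from -0.30 (H2B.11, adjusted p = 0.139) to -0.026 (H2B.7), all negative and none called.

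Both calls were D-type cyclins. CYCD2-2 (LOC4343936) had 94.0, 85.7 and 87.5 in WBF and 35.8, 56.5 and 56.4 in MBF. All MBF arrays were lower, with a change of -0.88 (SE 0.19, adjusted p = 0.0209). CYCD5-2 (LOC4352668) had 601, 598 and 574 against 817, 772 and 856, a change of 0.46 (SE 0.10, adjusted p = 0.0227), which a second probe set did not show (0.085, adjusted p = 0.818). CYCD2-2 lost its call without WBF replicate 1, WBF replicate 2 or MBF replicate 1 (adjusted p = 0.0819, 0.0563 and 0.0613). CYCD5-2 lost it without any single one of the WBF arrays, or without MBF replicate 1 or 3 (adjusted p between 0.0603 and 0.0704). CDKF-4 (LOC4330434) lay near the threshold at 0.71 (SE 0.19, adjusted p = 0.0546). The sum of the 7 anther and pollen genes was 9183 to 19050 in WBF and 3280 to 9926 in MBF. Of the 7 genes 4 were lower in fst, against 2.81% of all probe sets, and their part in these calls was not tested.

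WT panicles changed in 22 members between the stages. Of 39 members 12 rose, 10 fell and 17 were not called, against 16.4% and 15.0% of all probe sets, 31.3% in all. By the brightest probe set of each gene, as for the members, 5243 of 17905 genes rose and 5046 fell. The median of the members was 0.11 against 0.056 over all probe sets. Markers moved between the stages as well. The summed signal of the 7 anther and pollen genes was 9183 to 19050 in WBF and 890 to 1011 in W5D, where 7 of 7 were lower. In fst it was 3280 to 9926 before flowering and 795 to 995 at 5 DAP. There 6 of 7 genes were lower, against 11.2% of all probe sets. Their part in the stage changes below was not tested.

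The 4 largest rises in WT were those of CYCB2-2, CYCB1-1, CYCD2-2 and CDKB2-1. CYCB2-2 went from 62.5, 50.5 and 44.7 in WBF to the W5D values above, a rise of 2.91 (SE 0.25, adjusted p = 1.46e-06). CYCB1-1 went from 121, 104 and 54.9, a rise of 2.12 (SE 0.31, adjusted p = 0.000174). CDKB2-1 started at 174, 148 and 112 and rose by 1.44 (SE 0.22, adjusted p = 0.000221). The W5D arrays lay above the WBF arrays for all 3 genes, as they did for 18 of 39 members and 26.9% of all probe sets. CYCD2-2 rose by 1.44 too, to 207, 276 and 248 (SE 0.19, adjusted p = 6.06e-05).

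Falls in WT were led by CDKF-4, which dropped from 2973, 3768 and 2403 to 889.9, 990.5 and 1036, a change of -1.63 (SE 0.19, adjusted p = 2.42e-05). KRP5 dropped from 420.2, 448 and 457 to 232, 209 and 212, a change of -1.02 (SE 0.11, adjusted p = 1.29e-05). CDKF-3 fell by 0.87 and CycT1;2 by 0.74 on the log2 scale. KRP6 went the other way from KRP5, from 255, 235 and 312 to 533, 548 and 619.6, a rise of 1.09 (SE 0.13, adjusted p = 2.84e-05). A second, dimmer probe set of KRP6, with a mean signal of 15.4, gave 0.24 (adjusted p = 0.197).

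In fst panicles 8 members rose, 8 fell and 23 were not called, against 15.6% and 11.2% of all probe sets, 26.7% in all. By the brightest probe set of each gene, 5876 of 17905 genes rose and 3567 fell. The median of the members was -0.046 against 0.0092 over all probe sets. With the arrays centred on the same median, 10 rose and 4 fell. The largest rises were CYCD2-2 at 2.12 (SE 0.19), KRP6 at 1.65 (SE 0.13), CYCD6-1 at 1.25 (SE 0.14) and CYCB2-2 at 1.10 (SE 0.25). Second probe sets of KRP6 and CYCB2-2 gave 0.34 (adjusted p = 0.0766) and 0.84 (adjusted p = 0.0797) in fst, neither called. CDKF-4 dropped from 4835, 4465 and 5452 to 1085, 1169 and 1792, a change of -1.90 (SE 0.19, adjusted p = 5.79e-06). KRP5 changed by -1.03, CYCD4-1 by -0.76 and CYCA2-1 by -0.56, and the last of these was -0.32 (adjusted p = 0.132) without M5D replicate 2.

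The WT and fst stage comparisons contrast separate arrays, but their tests share a spread fitted over all 12 arrays, so their calls are not fully independent. Both called a rise for 6 members (KRP6, CYCB1-1, CYCB2-2, CYCD2-2, CYCD5-3 and CYCD6-1) and a fall for 4 (CDKF-4, KRP5, CYCD4-1 and CycT1;2), against 9.24% and 7.94% of all probe sets. The fall of CycT1;2 in fst (-0.33, adjusted p = 0.0387) was lost under 11 of 21 alternatives, with adjusted p up to 0.151, 8 of them the removal of a single array. CYCB1-1 was near the threshold in fst, at 0.91 (adjusted p = 0.0491), with overlapping arrays, and without M5D replicate 1 it gave 0.58 (adjusted p = 0.205). H2B.10 also fell in fst near the threshold (-0.38, adjusted p = 0.0492), and gave -0.23 without M5D replicate 3. CYCA3-2 was at 0.35 in WT (adjusted p = 0.0429) and -0.38 in fst (adjusted p = 0.0323). These calls were lost under 10 and 8 of 21 alternatives, with adjusted p up to 0.151 and 0.129. In neither genotype were 12 members called by their brightest probe sets. Dimmer probe sets of CDKG-2, CDKA-2 and CDKE-1, which are among them, did pass. The second of CDKG-2 gave -1.04 in WT (adjusted p = 0.00266) and -0.89 in fst (adjusted p = 0.00802). For CDKA-2 the second gave -0.67 in WT (adjusted p = 0.00662) and the third 0.65 in fst (adjusted p = 0.000563). The second of CDKE-1 gave 0.64 in fst (adjusted p = 0.0315).

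**Figure D4:**
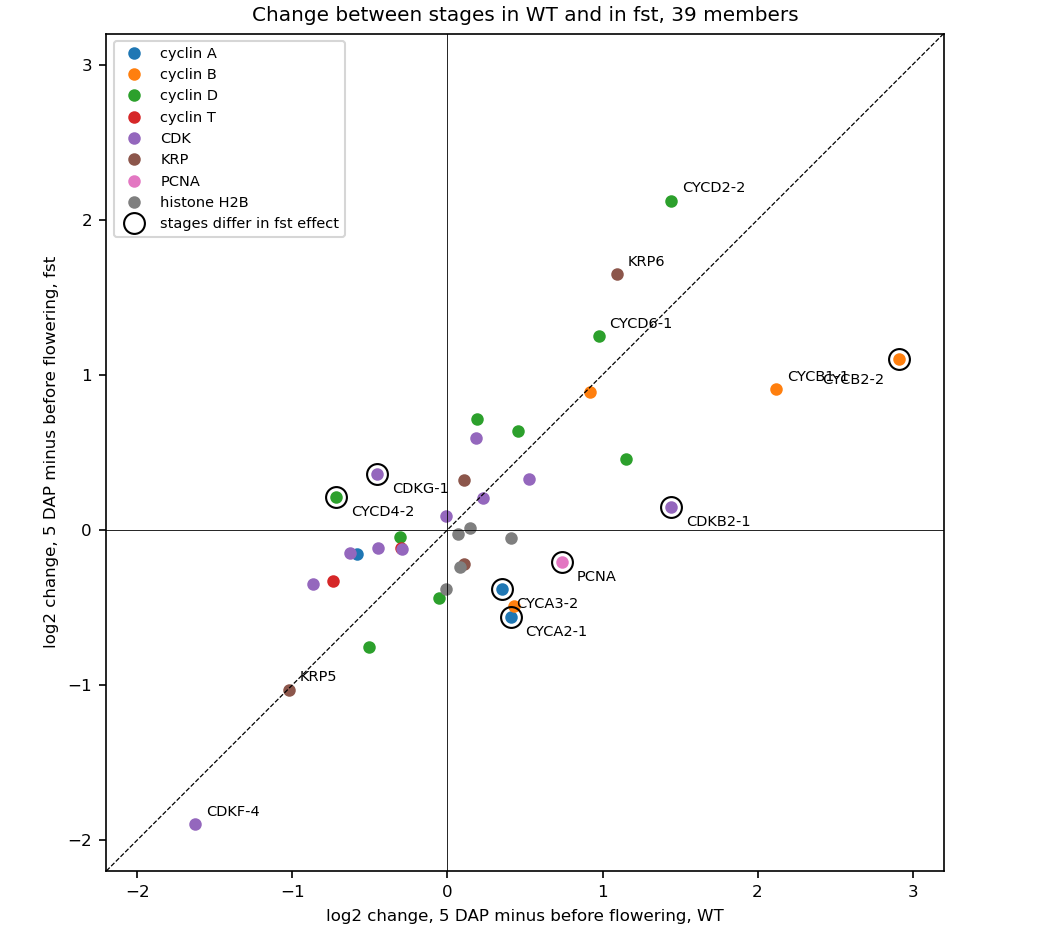
Log2 change from before flowering to 5 DAP in WT (x axis) and in fst (y axis) for the 39 members, coloured by family, with equal change on the dashed line. The 7 circled members differ in the fst effect between the stages: CYCB2-2, CDKB2-1, PCNA, CYCA2-1 and CYCA3-2 lie below the line and CYCD4-2 and CDKG-1 above it.

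Whether the fst effect itself differed between the stages was tested as an interaction, M5D minus W5D less MBF minus WBF. It was lower at 5 DAP for 5 members and higher for 2, with 32 not called, against 2.75% and 3.61% of all probe sets, 6.36% in all. By the brightest probe set of each gene, it was lower for 1019 of 17905 genes and higher for 1792. With the arrays centred on the same median the split of the members was 4 and 4. The median of the members was -0.024 against -0.029 over all probe sets. Dimmer probe sets of CDKA-1 (the second, 0.83, adjusted p = 0.0337) and CDKA-2 (the third, 0.62, adjusted p = 0.0340) also passed. Their brightest probe sets, at 0.41 and -0.024, did not.

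CYCB2-2 had the greatest difference, at -1.81 (SE 0.36, adjusted p = 0.0109), and its second probe set gave -1.65 (SE 0.46, adjusted p = 0.0539). Before flowering its MBF signals of 63.5, 58.3 and 60.5 overlapped those of WBF, and in fst the later rise was 1.10 where in WT it was 2.91. CDKB2-1 differed by -1.30 (SE 0.31, adjusted p = 0.0274), with MBF signals of 161, 152 and 125 and a stage change in fst of 0.15 that was not called. PCNA had nearly equal signals before flowering, 992, 955 and 941 in WBF and 1069, 1014 and 955 in MBF. It rose by 0.74 (SE 0.11) in WT, changed by -0.21 without a call in fst, and differed by -0.95 (SE 0.16, adjusted p = 0.0038).

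CYCA2-1 differed by -0.97 (SE 0.26, adjusted p = 0.042) and CYCA3-2 by -0.73 (SE 0.17, adjusted p = 0.0244). The call of CYCA2-1 was lost under 13 of 21 alternatives (adjusted p up to 0.0965), among them median centring, array weights, the replicate block and the removal of any array but M5D replicates 1 and 2. CDKB2-1 lost its call under 8 of 21 (up to 0.065) and CYCA3-2 under 4 (up to 0.0625). CYCD4-2 had 339, 363 and 367 in WBF and 341, 340.1 and 366 in MBF, so that the genotypes overlapped before flowering. In WT it fell by 0.72 on the log2 scale, in fst it showed no called change, and the difference was 0.93 (SE 0.15, adjusted p = 0.00318). CDKG-1 differed in the same direction by 0.81 (SE 0.19, adjusted p = 0.0262), which its second probe set did not show (-0.082). The mean signal of that probe set, 9.60, was below the lower quartiles of the arrays (10.1 to 11.3). The call of CDKG-1 was lost when any of 6 single arrays was left out (adjusted p up to 0.0634). The B-type cyclins CYCB1-1 and CYCB2-1, the H2B genes and CYCD5-1 were called at 5 DAP, but the difference of their effects between the stages was not.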

How the data were processed

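Panicle RNA of 4 groups of 3 samples was measured on 12 one-colour Affymetrix arrays. The authors made the deposited intensities with RMA in Affymetrix Expression Console (versions not given in the sources used here), which corrects the background, normalizes between arrays and summarizes each probe set. The values are linear (lowest 3.00, array medians 30.9 to 33.7) and were taken to log2. Here 187 control probe sets were left out and group means were fitted to 57194 probe sets over all 12 arrays with limma 3.58.1 (lmFit, eBayes) in R 4.3.3, with Benjamini-Hochberg adjustment per contrast. The code was tested on simulated data. The number of arrays limits the precision, and 3 against 3 arrays allow no exact permutation p below 0.1.

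Genes were named from the platform annotation and RefSeq synonyms, which 2907 of 17905 genes carry, so families may be incomplete. The members and lists were chosen with earlier results of these data known. Named in full are members called between genotypes or in the interaction (at 5 DAP the 12 largest, at most 4 per family), the 4 largest stage rises and falls, and the 2 largest changes of each related group; CYCD5-1 was added after its values were seen. A list of mitosis and cohesion genes matched no gene, and a planned promoter motif search was not run. Alternatives covered normalization, filters, probe set choice, moderation, array weights, a replicate block, the threshold and leaving out each array.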

Additional observations from a re-analysis of the deposited data

Results flagged for a closer look

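The fst effect differed between the stages, by the interaction test of limma, for 7 members. It was more negative at 5 DAP than before flowering for CYCB2-2 (-1.81 on the log2 scale), CDKB2-1 (-1.30), CYCA2-1 (-0.97), PCNA (-0.95) and CYCA3-2 (-0.73). It was more positive for CYCD4-2 (0.93) and CDKG-1 (0.81). The calls of PCNA and CYCD4-2 were lost under none of 21 alternatives, that of CYCB2-2 under 1 of 22 (its second probe set), CYCA3-2 under 4 of 21, CDKG-1 under 7 of 22, CDKB2-1 under 8 of 21 and CYCA2-1 under 13 of 21, the stricter threshold aside.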

How the results depend on the processing

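Counts of called members were recomputed under 11 other settings and without each of the 12 arrays. At an adjusted p under 0.01, 9 members instead of 15 were called between genotypes at 5 DAP, 0 instead of 2 before flowering and 2 instead of 7 in the interaction. With array weights 5 were called before flowering. Leaving out single arrays gave 9 to 16 at 5 DAP, 0 to 4 before flowering and 3 to 8 in the interaction, 16 to 24 for the stage change in WT and 11 to 17 in fst. The lowest interaction count came without WBF replicate 2, MBF replicate 2 or W5D replicate 2, and the 0 before flowering without WBF replicate 1. Stage counts stayed within 1.5 times of 22 and 16. Represented by its second probe set, with a mean signal of 9.60, CDKG-1 changed sign in the interaction (-0.082) and in the WT stage change (0.17), neither called. Of 62 called results of single members, 32 kept their call under every alternative other than the 0.01 threshold, and 30 lost it under at least 1. Quantile normalization gave 2 higher and 1 lower before flowering. With the arrays centred on the same median, 747 of all probe sets were higher and 2069 lower before flowering (1042 and 1605 as deposited), and 2960 and 1252 in the interaction (2063 and 1574). Replicates shared only a number: over 18 same-numbered pairs, deviations from the group means correlated between -0.29 and 0.07. With the replicate block 14 members were called at 5 DAP, 2 before flowering, 21 and 14 between stages in WT and fst, and 6 in the interaction.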
